A study of Mus musculus with 44 samples.

Results

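The loci of 9 genes of neural progenitors and of Notch signalling were followed through 44 accessible-chromatin profiles of mouse cortical neuron cultures: the receptor Notch1, its ligand Dll1, the Notch target genes Hes1 and Hes5, the progenitor factors Sox2 and Pax6, the intermediate filament gene Nes, and the neurogenic factors Neurog2 and Eomes. Each locus was the gene body on the mm10 build with 50 kb on each side, and a position shared by several loci was given to the nearest of the 9 genes. The summits of the peak lists were gathered into windows of 500 bp, and 232 of the 183089 windows on the 19 autosomes lay in these loci. They are called sites here. Notch1 had 46 sites, Nes 41, Sox2 40, Hes5 30, Dll1 20, Pax6 18, Hes1 15, Eomes 14 and Neurog2 8. A site is named by its gene and by the distance in bp of its centre from the 5-prime-most annotated start, negative upstream. The Hes1 annotation used here gives no strand, so its distances run from the low-coordinate end of the gene. Of the 232 sites, 64 lay inside the member gene and 24 within 1 kb of a start of it, or of either end for Hes1. Of the 217 sites outside the Hes1 locus, 68 had the start of another protein-coding gene nearer.

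The measure was rank within a library. All summits of a library were ordered by the peak caller's -log10 p, the best 100000 were kept, and a site scored log2(100000/rank) of its best summit, or 0 where it had none. A score of 1 is therefore rank 50000, a score of 2 rank 25000, a score of 3 rank 12500 and a score of 4 rank 6250, and a difference of 1 means that the site stood at a rank number changed by a factor of 2. A library holds a site when its score is above 0. Ranks are relative: a site can move because other windows moved, and a score near 0 lies near the end of the list.

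The profiles came from assay for transposase-accessible chromatin with sequencing (ATAC-seq), in which a transposase cuts open chromatin, on primary cortical neurons of E16.5 mouse embryos. The study asked how neuronal activity and the BAF chromatin remodelling complex, whose core subunits include the Smarcc2 protein, act on accessibility within minutes. Each group had 2 libraries. The culture protocol takes single embryos as the replicates, but no label ties a library to an embryo, so the p-values below measure the spread between these libraries. Tetrodotoxin and D-AP5, blockers of sodium channels and NMDA receptors, kept all cultures silent overnight, and each treatment was given together with DNase. At 18 days in vitro (DIV18), 5 genotypes were profiled unstimulated and after 30 min of 50 mM KCl, which depolarises neurons: Smarcc2 knockout by CRISPR guide RNA with Smarcc2 S586E (serine replaced by glutamate, a phosphate mimic), with S586A (serine replaced by alanine, which cannot be phosphorylated), with wild-type Smarcc2 or with empty vector, and a non-targeting guide RNA whose library names also carry the vector. At DIV7, FHT1015 at 100 nM, which blocks the ATPase of the BAF complex, was set against 0.1% DMSO for 10 and for 30 min, unstimulated or with KCl, in 16 libraries labelled as wild type, with no guide RNA named. Also at DIV7, Arid2 knockout guides, directed at a subunit of the PBAF form of the complex, were set against non-targeting guides, unstimulated or with 30 min of KCl, in 8 libraries. Peak lists do not show whether the guides removed Smarcc2 or Arid2. Primary cultures of this kind hold several cell types, and in bulk libraries a changed share of cells of a type and a changed accessibility per cell cannot be told apart.

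Notch receptors are cleaved when bound by Delta-type ligands on a neighbouring cell, and the released intracellular domain joins the DNA-binding protein RBPJ to switch on Hes genes. Hes1 and Hes5 are basic helix-loop-helix repressors that hold down proneural genes such as Neurog2 and ligand genes such as Dll1, and so keep radial glia, the progenitors of the cortex, from differentiating. Sox2 and Pax6 are transcription factors of these progenitors, Nes encodes their intermediate filament nestin, Neurog2 drives neurogenesis and Eomes marks intermediate progenitors. Several of them also remain active in astrocytes or other glia.

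The promoters of Hes5, Notch1 and Neurog2 are followed through the results, and their RefSeq sequences (GRCm38.p6, which is mm10) are shown from 250 bases before to 50 bases after the annotated start, 5-prime to 3-prime on the gene's strand. Hes5 is shown for its RBPJ-type words and Notch1 because its intragenic sites moved apart from its start under FHT1015. Neurog2 is shown because its promoter site was lower under FHT1015, a difference that was 0.0 with whole peak intervals in place of summits. With intervals the Notch1 promoter site was lower under FHT1015 too. They lie at chr4:154960673-154960972 (plus strand), chr2:26503773-26504072 (minus strand) and chr3:127632886-127633185 (plus strand), and capitals mark a motif match.
Hes5 promoter: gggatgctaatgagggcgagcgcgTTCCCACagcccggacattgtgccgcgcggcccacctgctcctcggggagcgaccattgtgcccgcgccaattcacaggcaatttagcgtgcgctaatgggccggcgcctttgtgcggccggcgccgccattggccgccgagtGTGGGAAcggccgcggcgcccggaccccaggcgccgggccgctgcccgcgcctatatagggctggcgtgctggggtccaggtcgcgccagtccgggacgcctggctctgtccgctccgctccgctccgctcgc
Notch1 promoter: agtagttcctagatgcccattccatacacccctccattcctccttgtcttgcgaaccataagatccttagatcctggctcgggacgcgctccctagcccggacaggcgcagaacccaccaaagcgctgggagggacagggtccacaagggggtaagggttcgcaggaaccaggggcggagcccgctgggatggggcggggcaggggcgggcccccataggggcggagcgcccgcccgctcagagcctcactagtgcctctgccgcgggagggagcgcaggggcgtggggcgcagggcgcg
Neurog2 promoter: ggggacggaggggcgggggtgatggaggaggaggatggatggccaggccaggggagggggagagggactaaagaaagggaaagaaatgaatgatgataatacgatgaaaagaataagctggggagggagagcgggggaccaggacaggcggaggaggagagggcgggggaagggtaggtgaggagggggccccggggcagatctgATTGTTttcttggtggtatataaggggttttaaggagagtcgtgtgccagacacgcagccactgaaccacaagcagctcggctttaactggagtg
In all, 5 motifs were searched on both strands: GTGGGAA, the core word of RBPJ; CACGTG and CACGAG, E-box and N-box words bound by Hes proteins; CAGATG, an E-box bound by proneural factors; and AACAAT, a core word of Sox factors. The Hes5 promoter held GTGGGAA in both orientations, on the minus strand at base 25 and on the plus strand at base 168, a word found in 6.33% of 31396 promoters. The Neurog2 promoter held AACAAT on the minus strand at base 206, a word found in 10.6% of promoters. None of the 5 words occurred in the Notch1 window, nor in those of Sox2, Pax6, Dll1, Nes and Eomes. CACGTG occurred in 7.14% of all promoters, CACGAG in 6.48% and CAGATG in 17.2%. A match is a description of letters. All 300 bases of the Hes5 window, 279 of the Notch1 window and the first 116 of the Neurog2 window lay inside the promoter sites measured below. The AACAAT match at base 206 therefore lay outside the Neurog2 site.

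The 44 lists held 182229 to 397885 summits, and replicate pairs correlated at r of 0.933 to 0.993 over 20871 windows held by every library. Depth differed between the experiments: the background pileup was 2.93 to 8.39 reads in the FHT1015 experiment, 0.942 to 3.68 at DIV18 and 1.39 to 1.8 in the Arid2 experiment. FHT1015 libraries had 238225 to 372263 summits and DMSO libraries 347076 to 397885. Vector libraries of the Smarcc2 knockout had 244804 to 287490 summits, and DIV18 non-targeting libraries 295592 to 347429.

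Of the promoters of these genes, those of Hes5, Notch1, Dll1, Sox2, Nes and Neurog2 stood highest in the FHT1015 experiment, and that of Hes1 stood as high at DIV18. The Hes5 site at its start (Hes5 -25, chr4:154960649-154961148) had a lowest score of 3.55, a median of 3.92 and a highest of 4.39 over the 16 libraries of the FHT1015 experiment, FHT1015 and DMSO together. It lay between 0 and 0.92 with a median of 0.11 over the 20 DIV18 libraries, and between 0 and 1.15 with a median of 0.42 over the 8 libraries of the Arid2 experiment. No library of the other experiments reached into the range of the FHT1015 experiment, where its rank was 4764 to 8539. The distal Hes5 site at -12486 showed the same split, from 1.98 to 3.37 in the FHT1015 experiment and at most 0.04 elsewhere.

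Among the other Notch pathway promoters, the receptor gene's site Notch1 +21 averaged 2.63 ± 0.33 (SD, n = 16) in the FHT1015 experiment, 1.70 ± 0.50 (n = 20) at DIV18 and 0.38 ± 0.38 (n = 8) in the Arid2 experiment. The ligand gene's site Dll1 -110 averaged 3.14 ± 0.30, 1.17 ± 0.35 and 1.98 ± 0.39 in the same order. Hes1 -166 departed from this order: it averaged 2.48 ± 0.36 in the FHT1015 experiment and 2.48 ± 0.27 at DIV18, against 0.20 ± 0.25 in the Arid2 experiment. Of the progenitor genes, Sox2 -77 was held by all 44 libraries and had the highest mean of the 9 promoters, 2.90 with a range over the 22 groups from 1.86 to 3.94. Nes -44 averaged 2.38 ± 0.18, 0.92 ± 0.42 and 0.18 ± 0.23 in the order given. Neurog2 -385 averaged 2.15 ± 0.53, 0.22 ± 0.29 and 0.61 ± 0.34. Pax6 had no site within 1 kb of its first start. Close to its second start, Pax6 +13201 averaged 0.29 ± 0.16 in DMSO libraries (SD, n = 8). Pax6 +14035, also within 1 kb of that start and taken as its promoter site, scored above 0 in the 16 libraries of the FHT1015 experiment only. Eomes -287 did so in 1 library.

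**Figure D1:**
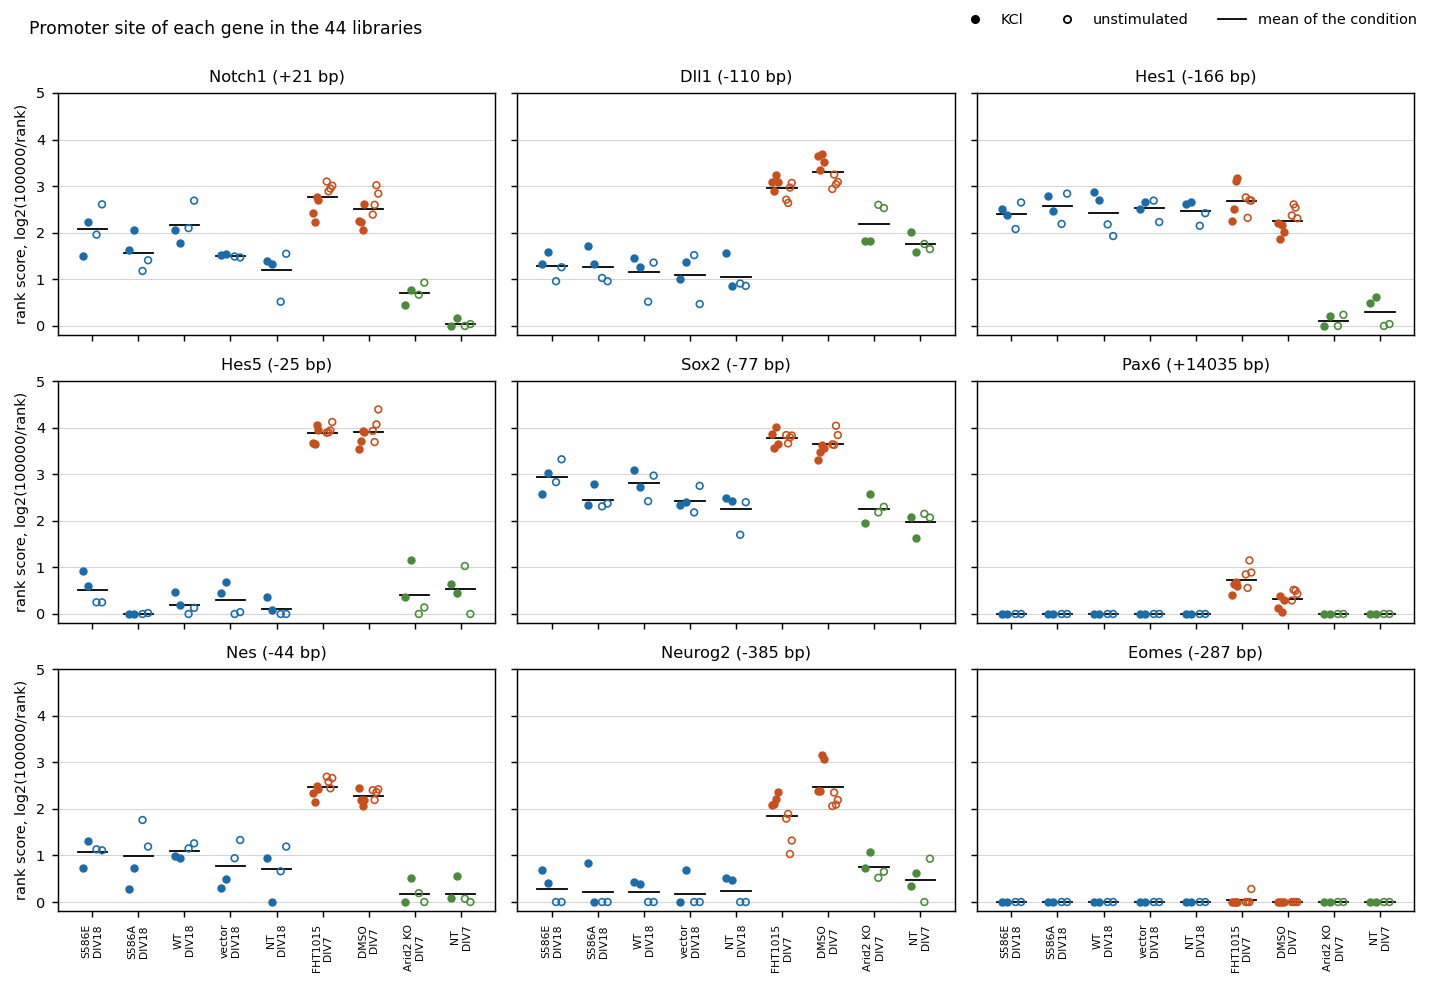
Rank score of each of the 9 promoter sites (y axis, log2 of 100000 over rank) by condition (x axis, 9 conditions with KCl libraries filled and unstimulated libraries open); points are libraries and lines are means. Hes5 -25 lies at 3.55 to 4.39 in FHT1015 and DMSO libraries and at 1.15 or less in all others, whereas Sox2 -77 is at 1.63 or higher in every library.

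The highest mean score of a locus was often not at the member's promoter. The site Notch1 +58352 at the promoter of Sec16a, a gene of endoplasmic reticulum exit sites, scored 6.35 to 9.08 over all libraries, and Hes5 +3512 at the promoter of Pank4 scored 3.60 to 6.35. At Sox2, Pax6 and Eomes the strongest site away from the member's own promoter site lay at the promoter of no other protein-coding gene: Sox2 -10605 averaged 2.68 ± 0.15, 1.39 ± 0.32 and 1.78 ± 0.45 in the FHT1015, DIV18 and Arid2 experiments, Pax6 +6455 averaged 3.92 ± 0.31, 1.73 ± 0.28 and 2.58 ± 0.25, and Eomes +27985 averaged 2.65 ± 0.24, 2.04 ± 0.32 and 2.38 ± 0.37. Thus Eomes, whose promoter was almost never held, kept a distal site in all 44 libraries. Of 10996 promoters compared with Hes5 -25 over the 44 libraries, the most alike were those of Dll3, a ligand gene of the Notch family (Pearson r = 0.98), the transcription factor gene Ebf1 (r = 0.98) and Thsd7b (r = 0.97). This r reflects the split between experiments: within the 16 libraries of the FHT1015 experiment it was 0.11 for Dll3, 0.39 for Ebf1 and 0.35 for Thsd7b, and within the 20 DIV18 libraries 0.52, 0.33 and -0.29.

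The difference between the experiments was tested at one age, DIV7, in the 4 DMSO 30 min libraries against the 4 non-targeting libraries of the Arid2 experiment, a comparison added after the day comparisons had been seen. Sites held by fewer than 2 libraries of a fit were left out, and a site was called at an adjusted p under 0.05 in limma with Benjamini-Hochberg adjustment over all windows tested. Of the 232 sites, 145 could be tested here. In DMSO libraries 101 of these stood higher and 12 lower, against 32.3% of all windows higher and 22.7% lower (55.0% called either way). By locus, 22 of 26 tested sites were higher and 1 lower at Sox2, 19 and 3 of 28 at Notch1, 18 and 3 of 25 at Nes, 11 and 0 of 13 at Pax6, 9 and 1 of 15 at Hes5, 8 and 0 of 12 at Hes1, 7 and 3 of 13 at Dll1, 5 and 0 of 6 at Neurog2, and 2 and 1 of 7 at Eomes. Which sites entered the test depends on where they were held, so these shares describe the tested sites only.

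Hes5 -25 averaged 4.08 ± 0.22 (SD, n = 4) in DMSO libraries and 0.53 ± 0.43 (n = 4) in non-targeting libraries, a difference of 3.54 (SE 0.23, limma adjusted p = 9.04e-05). The groups did not overlap, with values of 4.07, 4.39, 3.93 and 3.91 in DMSO libraries against 1.03, 0, 0.64 and 0.46 in non-targeting libraries. Notch1 +21 differed by 2.58, Neurog2 -385 by 2.15, Nes -44 by 2.08, Hes1 -166 by 1.96, Sox2 -77 by 1.78 and Dll1 -110 by 1.58, each called and without overlap. The Notch1 sites, +28194 (chr2:26475379-26475878, inside the gene) and -31982 (chr2:26535555-26536054), averaged 3.02 ± 0.26 and 2.62 ± 0.27 in DMSO libraries and were held by none of the 4 non-targeting libraries. The opposite was seen at Eomes -22517 (chr9:118455423-118455922), which averaged 1.51 ± 0.23 in DMSO and 3.64 ± 0.34 in non-targeting libraries (difference -2.13, SE 0.17, adjusted p = 0.000173), at Notch1 +49876 (difference -2.56) and at Nes +16711, inside the neighbouring gene Bcan (difference -1.58).

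Most promoters of the other pathway and progenitor genes were also higher in DMSO libraries, as were most promoters in general. Of 30 further Notch pathway genes, 29 had a promoter window and all 29 were tested, with 24 higher and 0 lower in DMSO libraries, the widest being Dll3 (difference 2.28). Of 30 further cortical progenitor genes, 29 were tested, with 19 higher and 4 lower, led by Fabp7, a radial glia fatty acid binding protein (2.41). Over all 9581 promoters tested, 57.0% were higher and 10.2% lower, shares near those of the progenitor list. Markers of other cell types moved as well: 7 of 8 tested astrocyte markers, all 5 tested oligodendrocyte lineage markers and 5 of 6 tested vascular markers were higher with 0 lower, whereas neuronal genes had 2 higher and 7 lower of 12, and interneuron markers 0 higher and 3 lower of 8. Fabp7, Sox9 and Slc1a3 stand on both the astrocyte and the progenitor list. The summed score of 8 astrocyte markers was 13.8 to 18.3 in DMSO and 5.8 to 8.0 in non-targeting libraries, that of 6 oligodendrocyte lineage markers 11.7 to 14.2 and 3.7 to 4.6, that of 13 neuronal genes 34.7 to 39.2 and 41.8 to 43.1, that of 8 interneuron markers 9.3 to 11.8 and 10.4 to 14.8, that of 6 vascular markers 6.3 to 8.6 and 3.2 to 4.2, and that of 4 microglia markers 2.0 to 2.4 and 0.3 to 1.0. The defining markers Gfap, S100b, Pdgfra and Cspg4 were at 0 in all non-targeting DIV7 libraries and Sox10 in both groups. Their part in the result was not tested. Treatment, guide virus, depth and experiment all differ between these groups and cannot be told apart. With the number of summits per library as a covariate, 0 of the 145 sites stayed called. That number did not overlap between the groups (347076 to 397885 in DMSO against 195494 to 249838 in non-targeting libraries). Depth can hardly be separated from group in this fit, so the loss of calls does not tell them apart.

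The same split shows in counts of summits and of sites held, which rest on the same cut at rank 100000 as the scores. The number of the best 100000 summits falling in the Sox2 locus had a median of 36 in the FHT1015 experiment, 8.5 at DIV18 and 15.5 in the Arid2 experiment. Pax6 had 18, 3 and 4 and Neurog2 10.5, 2 and 4.5 in that order, whereas Hes1 had 15, 16 and 9. Notch1 had 35, 25.5 and 22, and Nes 33.5, 23.5 and 17. Per library, 122 to 154 of the 232 sites were held in the FHT1015 experiment, 67 to 98 at DIV18 and 64 to 77 in the Arid2 experiment, although the experiments held similar numbers of windows in all, 62790 to 76380, 67211 to 78708 and 67285 to 74232. Sites held by at least 8 libraries of the FHT1015 experiment and by no other library made up 23 of the 232 (9.91%), against 3934 of all windows (2.15%).

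**Figure D2:**
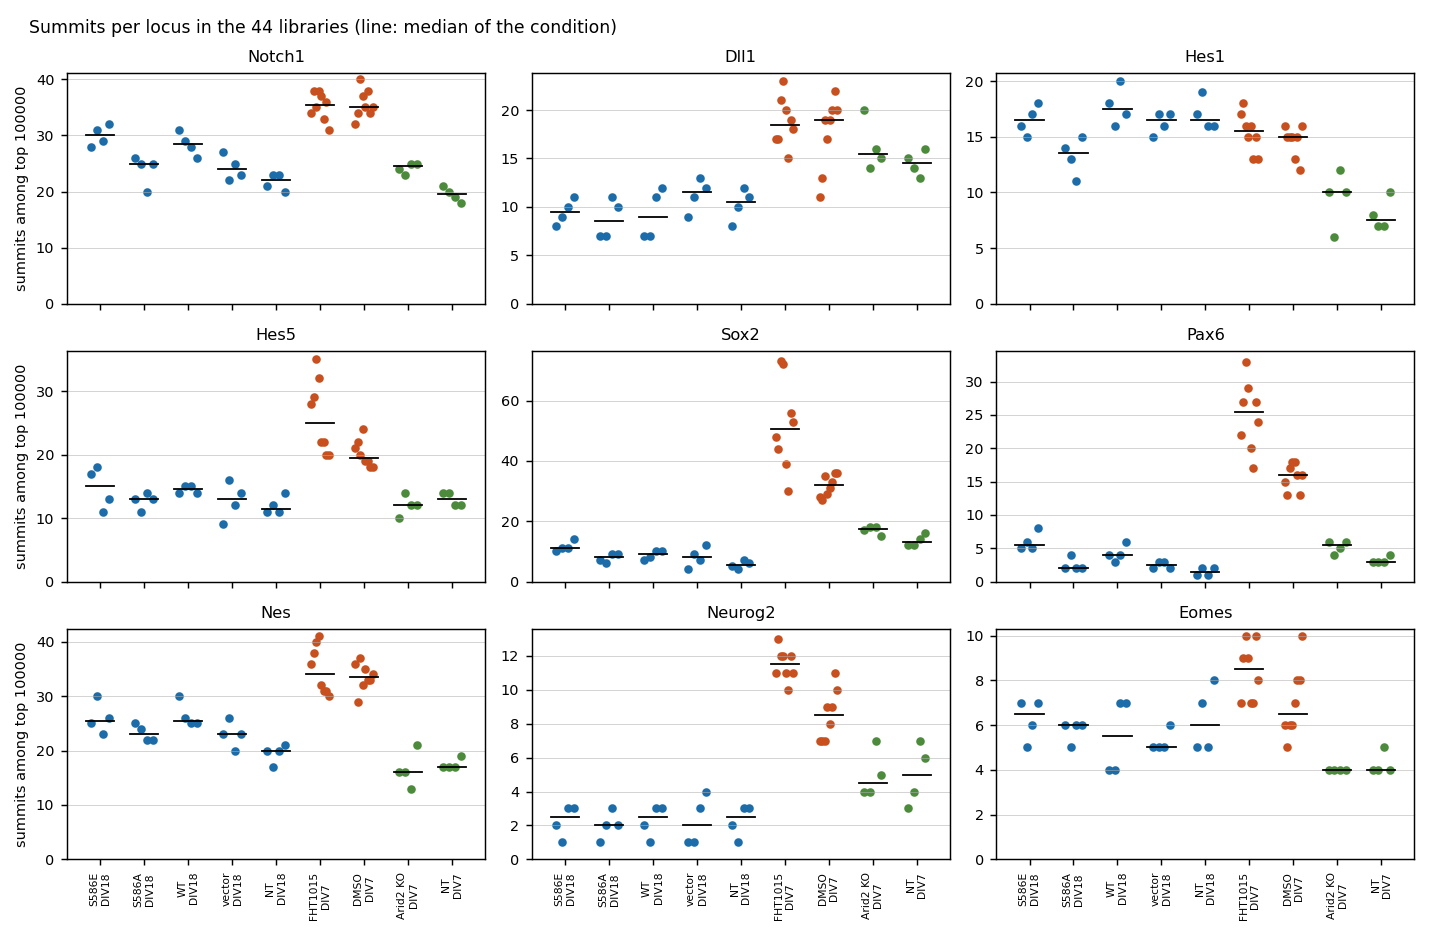
Number of the best 100000 summits of each library that fall in each of the 9 loci (y axis), by condition (x axis); points are libraries and lines are medians. The Sox2 locus holds 30 to 73 summits in FHT1015 libraries and 27 to 36 in DMSO libraries, against medians of 8.5 at DIV18 and 15.5 in the Arid2 experiment.

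Age was compared in 2 ways that share the 4 DIV18 non-targeting libraries, and the answer depended on the DIV7 libraries used. Against the 4 DIV7 non-targeting libraries, 22 of the 100 tested sites were higher and 21 lower at DIV18, where 29.7% of all windows were higher and 21.8% lower (51.5% either way). Against the 4 DIV7 DMSO 30 min libraries, 16 of the 161 tested sites were higher and 105 lower, where 30.8% of all windows were higher and 36.3% lower (67.2% either way). Each comparison also spans a change of experiment, and age and experiment cannot be told apart. The promoters of the other Notch pathway genes had 8 higher and 1 lower of 26 tested against non-targeting libraries and 1 higher and 18 lower of 29 against DMSO libraries, and those of the other progenitor genes 4 and 10 of 27 and 2 and 23 of 29. Over all promoters tested, 29.9% were higher and 17.7% lower against non-targeting libraries, and 15.0% and 50.0% against DMSO libraries. The Hes5 promoter averaged 0.11 ± 0.17 at DIV18, 3.96 lower than in DMSO libraries (SE 0.11, limma adjusted p = 8.18e-06) and 0.42 lower than in non-targeting libraries, which did not pass (adjusted p = 0.159). Hes1 -166 averaged 2.46 ± 0.23 at DIV18, 2.17 above the DIV7 non-targeting libraries (SE 0.13, adjusted p = 8.89e-05) and 0.21 above the DMSO libraries, which did not pass (adjusted p = 0.123). Notch1 +21 averaged 1.20 ± 0.46 at DIV18, called higher against non-targeting libraries (1.15) and called lower against DMSO libraries (-1.43). With the number of summits as a covariate the first of these differences turned to -0.88. That number did not overlap between these groups (295592 to 347429 at DIV18 against 195494 to 249838 at DIV7). The covariate can hardly be separated from the group there.

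Some sites differed by age in the same direction against both. The 3 distal Hes1 sites at -22379 (chr16:30042729-30043228), -35823 (chr16:30029285-30029784) and -40470 (chr16:30024638-30025137), which overlap no annotated protein-coding gene, averaged 2.90 ± 0.54, 2.03 ± 0.70 and 1.46 ± 0.72 at DIV18 (SD, n = 4). They stood 2.27, 1.89 and 1.37 above the DIV7 non-targeting libraries and 2.87, 2.03 and 1.46 above the DMSO libraries, each called. At -35823 and -40470 all 4 DMSO libraries were at 0. Nes +14509 was also higher in both (1.84 and 1.63), and Dll1 +897 (-1.55 and -2.84), Pax6 +6455 (-0.95 and -2.70) and Nes +16711 (-2.00 and -0.42) were lower in both. The difference of Pax6 +6455 from non-targeting libraries turned to 0.33 with the number of summits as a covariate. Nes +16711 overlapped between DIV18 and DMSO libraries and lost its call without any of 4 single libraries, DIV18 non-targeting KCl replicate 2, DMSO unstimulated replicates 1 and 2 or DMSO KCl replicate 2, at an unchanged sign (-0.43 to -0.39). In the comparison with non-targeting libraries 7 of 11 tested Hes1 sites were higher and 0 lower. Against DMSO libraries the Hes1 locus as a whole did not show this, with 3 higher and 4 lower of 13 tested. As with the same-age comparison, a covariate for the number of summits removed all 43 calls against non-targeting libraries, in groups that did not overlap in that number.

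FHT1015 moved sites of these loci both ways, and the Notch1 locus fell more often than it rose while the Sox2 locus did the reverse. Averaged over times and states, 63 of the 178 tested sites were higher and 54 lower in FHT1015 than in DMSO libraries, where 25.9% of all windows were higher and 36.4% lower (62.2% either way). The called share of the tested sites was 65.7%, close to that of all windows. At Notch1, 7 of 31 tested sites were higher and 21 lower, and of the 18 inside the gene 3 were higher and 13 lower. At Sox2, 24 of 39 were higher and 4 lower. Pax6 had 9 higher and 4 lower of 16, Hes5 8 and 5 of 22, Neurog2 4 and 1 of 6, Hes1 3 and 3 of 11, Eomes 3 and 3 of 8, Nes 5 and 8 of 32 and Dll1 0 and 5 of 13.

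**Figure D3:**
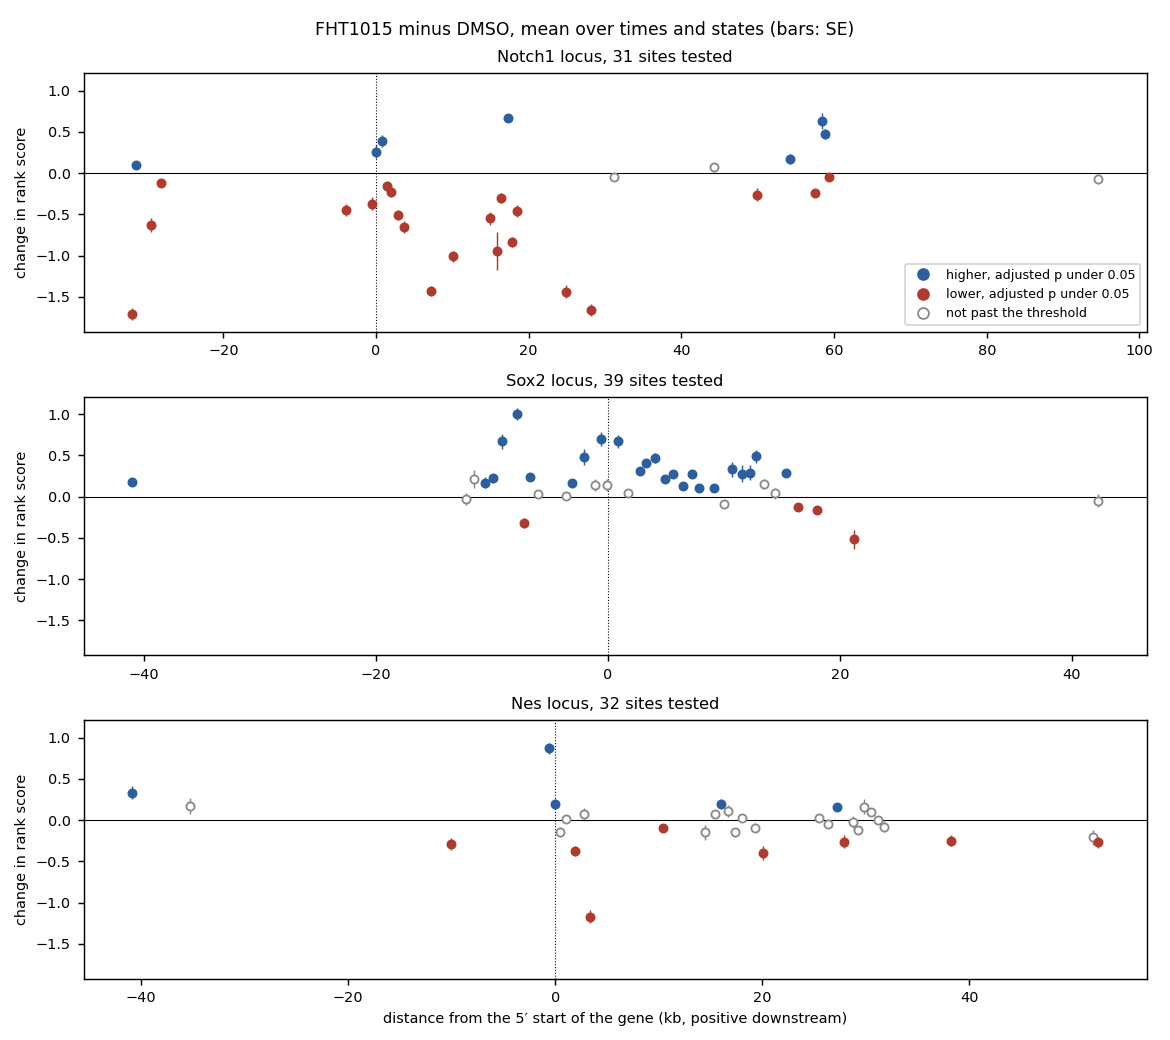
Change of the rank score under FHT1015 relative to DMSO (y axis, mean over 10 and 30 min and over unstimulated and KCl) against distance from the 5-prime-most start (x axis, kb, positive downstream) for the tested sites of Notch1 (31), Sox2 (39) and Nes (32), with bars for the SE and called sites filled. Notch1 sites at -31982 and +28194 changed by -1.71 and -1.66, and most called Sox2 sites lie above 0.

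The widest fall was at Notch1 -31982, upstream of the receptor gene and in no annotated protein-coding gene. Its scores at 30 min unstimulated were 0.23 and 0 with FHT1015 against 2.99 and 2.62 with DMSO, and with KCl 0.13 and 0 against 2.42 and 2.45. At 10 min they were 1.40 and 1.46 against 2.60 and 2.34 unstimulated, and 1.54 and 1.37 against 2.23 and 2.15 with KCl. All 8 FHT1015 libraries lay below all 8 DMSO libraries. The mean change was -1.71 (SE 0.07, limma adjusted p = 6.59e-08).

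Notch1 +28194, inside the gene, behaved alike at 30 min: 0.23 and 0.60 with FHT1015 against 3.23 and 3.23 with DMSO unstimulated, and 0.58 and 0.38 against 2.73 and 2.87 with KCl. At 10 min it scored 1.91 and 1.78 against 3.23 and 3.03 unstimulated, but 2.06 and 2.30 against 2.26 and 2.50 with KCl, where the groups overlapped and the change did not pass (-0.20, adjusted p = 0.52). The mean change was -1.66 (SE 0.07, adjusted p = 9.35e-08). Further falls inside the gene were at +24818 (-1.44), +7188 (-1.43), +10097 (-1.01) and +17853 (-0.83). FHT1015 libraries averaged 0.61 ± 0.57 at +24818, against 2.05 ± 0.35 in DMSO libraries (SD, n = 8 each), and 0.50 ± 0.45 at +7188, against 1.93 ± 0.27. The promoter site did not share the fall: Notch1 +21 averaged 2.76 ± 0.30 with FHT1015 and 2.50 ± 0.32 with DMSO (difference 0.26, adjusted p = 0.0153), a direction that turned to -0.37 when whole peak intervals were scored in place of summits.

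At several Notch1 sites the fall was larger at 30 min than at 10 min. The FHT1015 effect at 30 min minus that at 10 min was -1.83 at Notch1 +28194 (SE 0.15, adjusted p = 0.000136), -1.65 at Notch1 -31982 (SE 0.14, adjusted p = 0.000198) and -1.24 at Notch1 +24818 (SE 0.16, adjusted p = 0.00121). Of the 178 tested sites 23 were called higher and 18 lower for this difference, against 5.30% and 8.32% of all windows (13.6% either way). The difference of the effect at 30 min between KCl and unstimulated neurons was called at 40, 15 higher and 25 lower, against 13.2% and 10.2% of all windows (23.5%), and 25 with 50000 summits. The 10 and 30 min groups have their own DMSO libraries. Of the 178 tested sites, 91 were called at 30 min unstimulated, 56 higher and 35 lower, against 21.0% and 29.2% of all windows (50.1%), and 69 at 30 min with KCl, 38 higher and 31 lower, against 13.6% and 19.9% (33.5%). At 10 min, 50 were called unstimulated, 25 higher and 25 lower, against 8.88% and 22.2% of all windows (31.1%), and 16 with KCl, 3 higher and 13 lower, against 1.37% and 4.49% (5.86%). The count at 10 min unstimulated was 33 without DMSO 10 min unstimulated replicate 1 and 31 without FHT1015 10 min unstimulated replicate 1. That at 10 min with KCl was 1 without FHT1015 10 min KCl replicate 2, 6 without its replicate 1, 4 without DMSO 10 min KCl replicate 1, 9 without either FHT1015 10 min unstimulated replicate or FHT1015 30 min unstimulated replicate 2, and 10 without FHT1015 30 min unstimulated replicate 1 or either DMSO 30 min KCl replicate. The count at 30 min with KCl was 45 without DMSO 30 min KCl replicate 2.

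**Figure D4:**
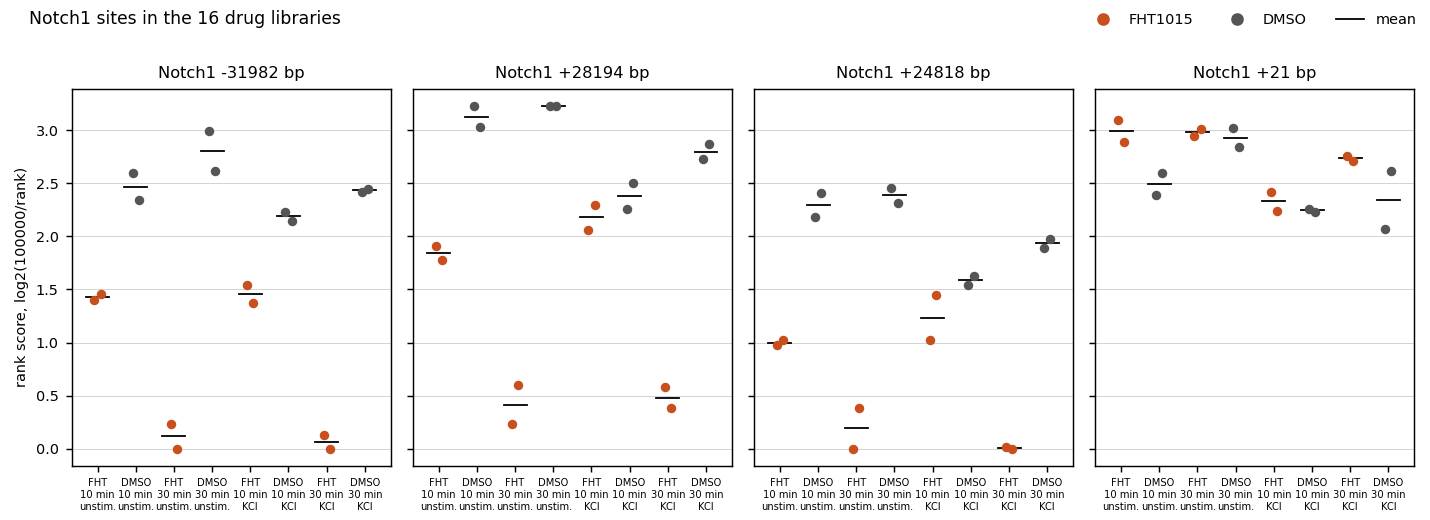
Rank scores of 4 Notch1 sites (panels: -31982, +28194, +24818 and the promoter site +21) in the 16 libraries of the FHT1015 experiment (y axis, rank score), by time and state (x axis) with FHT1015 left of DMSO; points are libraries and lines are means. At 30 min the first 3 sites lie at 0.60 or lower with FHT1015 and at 1.89 or higher with DMSO, and the promoter site overlaps between the treatments.

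Other progenitor and ligand genes had single sites that fell. Nes +3361, inside the nestin gene, averaged 0.77 ± 0.69 with FHT1015 and 1.93 ± 0.26 with DMSO (difference -1.17, SE 0.08, limma adjusted p = 7.53e-07), without overlap over 8 libraries each. Dll1 -3805, upstream of the ligand gene, averaged 0.47 ± 0.23 with FHT1015 and 1.51 ± 0.30 with DMSO (-1.04, SE 0.12, adjusted p = 2.77e-05), also without overlap. Hes1 -42294 fell by 0.80 and Hes5 -24148 fell by 0.74 on the score. The widest gains were at Sox2 -7841 (1.13 ± 0.30 with FHT1015 and 0.13 ± 0.17 with DMSO, difference 1.00, adjusted p = 7.65e-07), at Nes -580 (0.87), at Sox2 -585 (0.70), at Sox2 -9113 (0.67) and at Eomes +11650 (0.64).

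The gains at Sox2 -7841 and -585 were not called when whole peak intervals were scored. FHT1015 libraries had 30 to 73 of their best 100000 summits in the Sox2 locus with a median of 50.5, and DMSO libraries 27 to 36 with a median of 32. The length covered by the best intervals was alike, 26753 to 33842 bp with FHT1015 and 29874 to 33666 bp with DMSO, and the intervals were fewer, 23 to 45 against 41 to 47. With intervals scored in place of summits the change at Sox2 -7841 was 0.02 (adjusted p = 0.708) and at Sox2 -585 0.14 (adjusted p = 0.0788). Pax6 had 17 to 33 summits with FHT1015 against 13 to 18 with DMSO, and Hes5 20 to 35 against 18 to 24.

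Among the 9 promoters, Hes5 -25 averaged 3.90 ± 0.17 with FHT1015, against 3.90 ± 0.26 with DMSO (SD, n = 8 each, adjusted p = 0.998), and the change at Sox2 -77 did not pass either (0.14, adjusted p = 0.112). Neurog2 -385 averaged 1.85 ± 0.46 with FHT1015 and 2.46 ± 0.42 with DMSO (difference -0.61, SE 0.06, adjusted p = 9.78e-06) and Dll1 -110 2.96 ± 0.20 and 3.31 ± 0.28 (-0.35, adjusted p = 0.000835). Neurog2 lost its fall with intervals (0.00, adjusted p = 0.941), and so did Dll1 (-0.08, adjusted p = 0.301). Hes1 -166 was 0.43 higher, Pax6 +14035 0.40 higher and Nes -44 0.19 higher, all with overlapping groups, and these 3, Dll1 -110 and Notch1 +21 lost their calls with the number of summits as a covariate. The 3 Notch1 sites at -31982, +28194 and +24818 kept theirs under that covariate (-1.56, -1.48 and -1.43). Of the other Notch pathway genes, 6 promoters of 29 were higher and 8 lower, led by Heyl, a Hes-related repressor (-0.99), and of the other progenitor genes 9 were higher and 4 lower, led by Tnc, an extracellular matrix gene (-0.65). Over 9673 promoters 24.9% were higher and 26.3% lower. Neuronal genes had 3 higher and 5 lower of 12 tested, astrocyte markers 2 and 2 of 8, oligodendrocyte lineage markers 2 and 0 of 6, microglia markers 0 and 1 of 3, vascular markers 1 and 2 of 6 and interneuron markers 3 and 2 of 7. The summed astrocyte score was 14.4 to 16.6 with FHT1015 and 13.6 to 18.3 with DMSO, and the neuronal one 32.7 to 38.8 and 34.7 to 39.2.

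With KCl, the promoters of Hes5 and Neurog2 stood higher and that of Nes lower at DIV18, and distal sites moved both ways. The Hes5 and Neurog2 promoter scores were near the end of the list there, at most 0.92 and 0.83 with KCl. At DIV18, over the 5 genotypes, 21 of the 133 tested sites were higher and 26 lower with KCl, against 16.8% and 23.6% of all windows (40.4%). The widest change was at the Pank4 promoter in the Hes5 locus, Hes5 +3512, which averaged 3.81 ± 0.19 with KCl and 5.90 ± 0.26 unstimulated (SD, n = 10 each, difference -2.08, SE 0.10, limma adjusted p = 4.52e-09) without overlap. At DIV7 in DMSO libraries the same site scored 3.97 ± 0.22 after 30 min of KCl and 6.25 ± 0.14 unstimulated (n = 2 each, difference -2.28, adjusted p = 3.9e-06). Downstream of Nes, Nes +10401 averaged 0.03 ± 0.09 with KCl and 1.32 ± 0.29 unstimulated (-1.29, adjusted p = 6.88e-07), and Nes +11923 0.95 ± 0.33 and 2.27 ± 0.57 (-1.31, adjusted p = 2.15e-05). The distal Hes1 sites -40470 (-1.10) and -35823 (-0.86) fell with KCl too. Neurog2 +1127, downstream of the start, averaged 1.74 ± 0.30 with KCl and 0.95 ± 0.32 unstimulated (0.79, adjusted p = 0.000967), and Neurog2 -385 0.44 ± 0.27 and 0 (0.44, adjusted p = 0.0034). Hes5 -25 averaged 0.38 ± 0.31 and 0.07 ± 0.10 (0.31, adjusted p = 0.00159), and Nes -44 was 0.50 lower with KCl (-0.50, adjusted p = 0.0174), a call not made with intervals (-0.22). The changes at Sox2 -77 (0.09), Hes1 -166 (0.28), Dll1 -110 (0.36) and Notch1 +21 (0.01) did not pass.

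After 10 min of KCl in DMSO libraries at DIV7, 14 of the 178 tested sites were higher and 21 lower, against 5.71% and 13.2% of all windows (18.9%). The count of 35 was 19 or 21 without DMSO 10 min unstimulated replicate 1 or 2, and 12 without DMSO 10 min KCl replicate 1. In the same experiment 60 of the 178 tested sites were called after 30 min of KCl, 23 higher and 37 lower, against 12.2% and 19.6% of all windows (31.9%), and 39 were called without DMSO 30 min KCl replicate 1. Neurog2 -385 averaged 3.11 ± 0.07 with KCl and 2.14 ± 0.07 unstimulated (0.97, SE 0.12, limma adjusted p = 0.000221), as at DIV18 on the higher side with KCl. Hes5 did not share this: the 3 tested sites inside the gene, its promoter site among them, changed by -0.31 to -0.08, and none was called. The intragenic site Notch1 +10097 averaged 0.58 ± 0.28 with KCl and 2.59 ± 0.13 unstimulated (-2.01, adjusted p = 9.06e-06). In the Arid2 experiment 0 of the 87 tested sites were called with KCl in limma, where 0.721% of all windows were (0.596% higher and 0.126% lower), and 11 had an unadjusted p under 0.05. Of the other progenitor promoters at DIV18, 10 of 27 were higher with KCl and 0 lower, led by Btg2, an antiproliferative gene also induced by activity (2.57). Over all promoters tested at DIV18, 28.1% were higher and 15.2% lower.

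The Smarcc2 knockout lowered 3 distal sites on the low-coordinate side of Hes1, and each form of Smarcc2 that was added back gave higher scores there than vector. Against non-targeting libraries, 2 of the 133 tested sites were higher and 5 lower in knockout libraries with vector, against 3.51% and 7.30% of all windows (10.8%). The count was 11 without DIV18 non-targeting unstimulated replicate 2 or without S586E unstimulated replicate 2, and 4 without non-targeting KCl replicate 1 or without vector KCl replicate 2. Hes1 -22379 scored 3.91 and 2.92 with S586E, 3.25 and 2.74 with S586A, 3.27 and 3.21 with wild-type Smarcc2, 2.23 and 1.38 with vector, and 3.70 and 2.76 in non-targeting libraries, all unstimulated. With KCl it scored 2.73 and 2.53 with S586E, 2.86 and 3.12 with S586A, 2.68 and 2.55 with wild-type Smarcc2, 1.19 and 1.66 with vector, and 2.61 and 2.52 in non-targeting libraries. The 4 vector libraries lay below all 16 others. Knockout with vector differed from non-targeting by -1.28 (SE 0.26, limma adjusted p = 0.00678).

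Hes1 -35823 scored 2.38 and 1.97 with S586E, 2.21 and 2.30 with S586A, 2.10 and 2.15 with wild-type Smarcc2, 1.34 and 1.38 with vector, and 2.59 and 2.67 in non-targeting libraries, all unstimulated. With KCl it scored 1.39 and 1.81, 1.36 and 1.57, 1.80 and 1.56, 0.06 and 0.07, and 1.52 and 1.33 in the same order. Within each state the vector libraries lay below all others. The knockout difference was -1.32 (SE 0.15, adjusted p = 0.000311). Hes1 -40470 averaged 0.63 ± 0.74 with vector and 1.46 ± 0.72 in non-targeting libraries (SD, n = 4 each, difference -0.83, adjusted p = 0.0121), with the vector libraries at 0 in both KCl replicates. Without non-targeting KCl replicate 1 its adjusted p was 0.0504. Neither Hes1 -166, the site at its gene end, nor Hes1 -1236 was called (0.06, adjusted p = 0.9, and -0.21, adjusted p = 0.562).

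The add-back comparisons share the 4 vector libraries with each other and with the knockout comparison, so low vector values enter all of them. Against vector, S586E raised Hes1 -22379 by 1.41 (adjusted p = 0.00494), S586A by 1.38 (adjusted p = 0.00486) and wild-type Smarcc2 by 1.31 (adjusted p = 0.00812). For Hes1 -35823 the differences were 1.17, 1.15 and 1.19 and for Hes1 -40470 they were 1.13, 0.87 and 0.70, all called. The last of these 9, -40470 with wild-type Smarcc2 (adjusted p = 0.033), lost its call in turn without vector unstimulated replicate 1 (0.62), wild-type unstimulated replicate 2 (0.59), vector KCl replicates 1 (0.70) and 2 (0.70), and wild-type KCl replicates 1 (0.65) and 2 (0.75). The -22379 and -35823 calls against non-targeting and against vector held under every alternative tried. Wild-type add-back and non-targeting libraries differed by 0.03 at -22379 (SE 0.26, adjusted p = 1.0) and by -0.13 at -35823 (SE 0.15, adjusted p = 0.844). S586E and S586A differed by 0.03 at -22379 (SE 0.26, adjusted p = 1.0), by 0.03 at -35823 (SE 0.15, adjusted p = 1.0) and by 0.27 at -40470 (SE 0.18, adjusted p = 0.642). With KCl the vector libraries stood at or near the lowest possible score at -35823 and -40470, so a wider fall could hardly have shown there. Within that limit, the fall at KCl did not differ detectably between knockout and non-targeting libraries. In limma 6 of the 133 tested sites had an unadjusted p under 0.05 for that difference. None of the 133 was called, where 0.507% of all windows were (0.342% higher and 0.165% lower). Counts of 2 appeared without non-targeting unstimulated replicate 2 or vector unstimulated replicate 1, and of 1 without vector unstimulated replicate 2 or non-targeting KCl replicate 2.

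**Figure D5:**
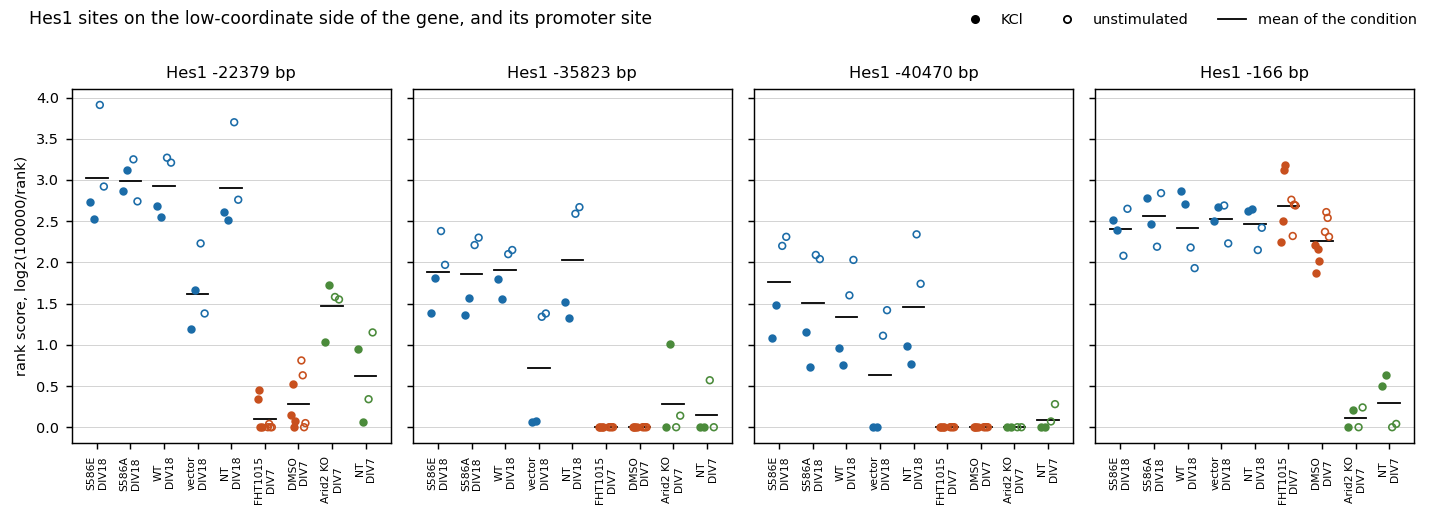
Rank scores of 4 Hes1 sites (panels: -22379, -35823, -40470 on the low-coordinate side and -166 at the gene end) in all 44 libraries (y axis, rank score) by condition (x axis, DIV18 genotypes first), with KCl libraries filled and unstimulated libraries open and lines at the means. Among DIV18 libraries at -22379 the 4 vector libraries lie at 2.23 or lower and all others at 2.52 or higher, whereas the site at the gene end overlaps between genotypes.

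Against vector, 7 of the 133 tested sites were higher and 0 lower with wild-type Smarcc2, against 4.53% and 3.27% of all windows (7.80%). With S586A 8 were higher and 1 lower, against 6.50% and 3.57% (10.1%), and with S586E 11 were higher and 2 lower, against 4.67% and 3.71% (8.39%). These counts moved by more than 1.5 times without single libraries: with wild-type Smarcc2 to 2 without vector KCl replicate 2 and to 3 without either wild-type KCl replicate, with S586A to 5 without its unstimulated replicate 1 and to 3 without vector KCl replicate 2 or S586A KCl replicate 2, and with S586E to 23 without its unstimulated replicate 2 and to 20 without its KCl replicate 1. Nes +11409, downstream of the nestin gene, was higher than in vector libraries with S586E (1.80 ± 0.50 against 0.61 ± 0.43, difference 1.18, limma adjusted p = 0.00984), with S586A (1.01) and with wild-type Smarcc2 (1.11). The S586A call was lost without vector unstimulated replicate 1 (0.88), S586A unstimulated replicate 2 (0.88), vector KCl replicate 2 (0.96) or S586A KCl replicate 2 (0.96), and the wild-type call without vector KCl replicate 2 (1.06). The knockout itself did not pass there (-0.52, adjusted p = 0.197). S586E libraries stood above vector at Notch1 +2851, inside the gene (2.92 ± 0.32 against 1.79 ± 0.48, difference 1.13, adjusted p = 0.00657).

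Between the serine mutants, 4 of the 133 tested sites were higher with S586E than with S586A and 0 lower, against 0.387% and 0.103% of all windows (0.490%). Notch1 -31982, the site that fell widest under FHT1015, scored 1.22, 0.96, 0.30 and 1.30 with S586E, against 0, 0.02, 0.13 and 0.14 with S586A (difference 0.87, SE 0.17, limma adjusted p = 0.0346). Notch1 +28194 scored 0.13, 0.49, 0.69 and 0.96 with S586E and 0 in all 4 S586A libraries (0.57, SE 0.10, adjusted p = 0.0217). Hes5 -25 scored 0.25, 0.25, 0.92 and 0.61 with S586E, against 0, 0.02, 0 and 0 with S586A (0.50, adjusted p = 0.0481), and Pax6 +11814 averaged 0.32 ± 0.34 and 0. The groups did not overlap at the first 3 sites, but nearly all values lie below 1, beyond rank 50000. The count of 4 was 12 without S586E unstimulated replicate 2, 9 without S586E KCl replicate 1, 1 without either S586A KCl replicate, and 2 without S586A unstimulated replicate 1 or 2, any of the 4 vector libraries, wild-type KCl replicate 2 or non-targeting KCl replicate 1 or 2. These calls were fragile, at differences that hardly moved. That at Notch1 -31982 was lost without any single vector or S586A library, either KCl library of the non-targeting or wild-type group, or S586E unstimulated replicate 1. That at Hes5 -25 was lost without any single vector, S586A or non-targeting library, wild-type KCl replicate 2, S586E unstimulated replicate 1 or S586E KCl replicate 1. That at Notch1 +28194 was lost without either S586A KCl replicate or S586E KCl replicate 2.

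Wild-type add-back and non-targeting libraries differed at 3 of the 133 tested sites, all higher with wild-type Smarcc2, against 0.282% of all windows higher and 0.198% lower (0.480%): Notch1 +2851 (1.12), Nes +29286 at the promoter of Bcan (1.04) and Nes +16009 (0.68). The 3 calls were absent without any of 8 single libraries (non-targeting unstimulated replicate 1 or KCl replicate 1, either KCl replicate of vector, of wild-type Smarcc2 or of S586A), the count was 1 without wild-type unstimulated replicate 2, and 8 without non-targeting unstimulated replicate 2. Of the other Notch pathway promoters, 0 of 28 tested were called between knockout with vector and non-targeting libraries, and of the other progenitor promoters 1 of 27, Tnc, was lower (-1.32), where 2.75% of all promoters were called. Marker promoters called in that comparison were the neuronal gene Tbr1 (0.72), the astrocyte gene Gfap (0.66) and the vascular gene Egfl7 (0.57), all higher with the knockout.

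The Arid2 knockout changed none of the sites past the threshold: 0 of the 87 tested were called in limma, where 0.00445% of all windows were called (0.00222% in each direction), and 11 had an unadjusted p under 0.05. The widest difference among the promoters was at Notch1 +21, 0.71 ± 0.20 with Arid2 knockout and 0.05 ± 0.08 in non-targeting libraries (SD, n = 4 each, difference 0.66, SE 0.17, adjusted p = 0.92), without overlap. Hes1 -22379 averaged 1.48 ± 0.30 and 0.63 ± 0.51 (0.85, SE 0.31, adjusted p = 0.92). Sox2 -77 averaged 2.25 ± 0.26 and 1.98 ± 0.24, Dll1 -110 2.20 ± 0.43 and 1.75 ± 0.19, and Hes5 -25 0.42 ± 0.51 and 0.53 ± 0.43, each overlapping between genotypes. None of the other pathway, progenitor and marker promoters was called.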

How the data were processed

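The 44 deposited ATAC-seq peak lists were narrowPeak files on mm10, 1 per library, so replicates were not pooled. The submitters' processing notes name MACS2, Bowtie2, Trim Galore, bedtools, FastQC, Picard and SAMtools without roles or versions. Per the file format, the authors deposited for each peak a fold enrichment at the summit, a -log10 p and a -log10 q from the peak caller, and several summits may share an interval. The -log10 p ordered the summits, and the deposited fold and -log10 q served only to derive background pileup and one alternative threshold. Peak lists carry no reads per site, so the depth behind a score is known only through the number of summits and the background pileup.

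Summits on 19 autosomes were grouped into 500 bp windows, and window scores were fitted with limma 3.58.1 in R 4.3.3 (group means, trended variance, Benjamini-Hochberg over all tested windows; held by at least 2 libraries of the fit; called at adjusted p under 0.05). Python 3.11.15, numpy 2.4.6, pandas 2.3.3 and scipy 1.17.1 did the rest. The steps were tested on simulated scores with shifts placed only in windows of higher mean score, so calls near 0 were not covered. Fits covered the 16 FHT1015, the 20 DIV18 and the 8 Arid2 libraries, and 8 libraries for each comparison across experiments. The members and gene lists were chosen with earlier results of these data known. Sites named in the text are the promoter site and the strongest other site of each locus, the sites of widest called change per comparison, and sites followed across comparisons, the last chosen after their values were seen. Alternatives were 50000 summits, 300 and 1000 bp windows, intervals, a -log10 q of at least 5, no filter or 4 libraries, a summit-number covariate, a replicate block and leaving out each library. Sequences are from RefSeq promoter tables; no genome sequence was used. The KCl result of the other Notch pathway promoters at DIV18 is not reported here.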

Additional observations from a re-analysis of the deposited data

Results flagged for a closer look

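The FHT1015 effect at 30 min differed between KCl and unstimulated neurons at 6 of the sites followed, by the interaction term in limma with Benjamini-Hochberg adjustment over all windows, a test added after seeing the data. At Notch1 +10097 the effect with KCl minus that unstimulated was 1.76 (SE 0.20, adjusted p = 0.000253). FHT1015 libraries averaged 0.00 with KCl, against 0.58 in DMSO, and 0.25 unstimulated, against 2.59 in DMSO. A score cannot fall below 0, so with KCl it could fall by 0.58 at most. The term therefore cannot tell a weaker drug effect with KCl from this limit of the score. At Eomes -22517 it was 1.73 (SE 0.17, adjusted p = 0.000115), with scores of 1.43 and 1.48 for FHT1015 against 1.37 and 1.32 for DMSO under KCl, and of 0.09 and 0 against 1.52 and 1.82 unstimulated. At Hes5 +1242 it was -1.14 (SE 0.09, adjusted p = 4.48e-05), from 1.29 and 1.15 with FHT1015 unstimulated, against 0 and 0.16 in DMSO, where all 4 KCl libraries at 30 min were at 0. Notch1 +58352 at the Sec16a promoter had -1.0 (SE 0.29, adjusted p = 0.0298), Hes1 -166 0.79 (SE 0.23, adjusted p = 0.0323) and Pax6 +6455 0.52 (SE 0.17, adjusted p = 0.0469). The calls at these 3 sites were fragile: that at Notch1 +58352 was lost without DMSO unstimulated replicate 1, DMSO KCl replicate 1 or 2, either FHT1015 unstimulated replicate or FHT1015 KCl replicate 2, all at 30 min, that at Hes1 -166 without any of the 8 libraries at 30 min except DMSO unstimulated replicate 2, and that at Pax6 +6455 without any of the 16 libraries except DMSO 30 min KCl replicate 2 and FHT1015 30 min KCl replicate 2. With intervals in place of summits, Notch1 +10097 gave 0.61 and Hes5 +1242 -0.09, neither of them called, and Hes1 -166 turned to -0.23.

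The FHT1015 effect also differed between 30 and 10 min, averaged over states, at Notch1 +28194 (-1.83, SE 0.15, adjusted p = 0.000136), Notch1 -31982 (-1.65, SE 0.14, adjusted p = 0.000198), Nes +3361 (-1.36, SE 0.16, adjusted p = 0.000729) and Neurog2 -385 (-0.57, SE 0.12, adjusted p = 0.0121). With the number of summits as a covariate the calls at both Notch1 sites and at Nes +3361 were also made, and that at Neurog2 -385 was not (-0.64, adjusted p = 0.0543). With intervals in place of summits Neurog2 -385 turned to 0.07.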

How the results depend on the processing

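With 50000 summits in place of 100000, called sites numbered 62 in place of 117 for the mean FHT1015 effect, 24 for 50 at 10 min unstimulated, 47 for 91 at 30 min unstimulated, 9 for 16 at 10 min with KCl and 42 for 69 at 30 min with KCl. They numbered 21 for 35 for 10 min of KCl in DMSO, 25 for 40 for the KCl dependence of FHT1015, 18 for 41 for its time dependence, 4 for 7 for wild-type Smarcc2 against vector, 4 for 9 for S586A, 7 for 13 for S586E, 0 for 4 for S586E against S586A, 25 for 47 for KCl at DIV18 and 1 for 0 for the KCl response of knockout minus non-targeting. Across experiments they numbered 25 for 43 for DIV18 against DIV7 non-targeting, 68 for 121 for DIV18 against DMSO and 73 for 113 for DMSO against non-targeting. The median number of summits in the loci per library was then 46.5 for 104 in the Arid2 experiment, 53 for 106.5 at DIV18 and 99.5 for 195.5 in the FHT1015 experiment, by construction.

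With the number of summits as covariate, the counts were 49 for the mean FHT1015 effect, 48, 9 and 36 for 30 min unstimulated, 10 min with KCl and 30 min with KCl, 24 for its time dependence, 21 for S586E against vector, 2 for S586E against S586A, and 0 for both DIV18 and DMSO against DIV7 non-targeting. Under it the direction turned against DIV7 non-targeting at DIV18 for Notch1 +21 (-0.88), Pax6 +6455 (0.33), Nes -40864 (1.17), Hes5 -14373 (-0.5) and Eomes -22517 (0.08), and in DMSO for Pax6 +14035 (-0.14) and Nes -40864 (0.14). In both comparisons with DIV7 non-targeting libraries the number of summits did not overlap between the groups. There the covariate can hardly be separated from the group. With intervals in place of summits, the counts were 3 for FHT1015 at 10 min with KCl, 14 for knockout against non-targeting, 4 for wild-type Smarcc2 against vector, 2 for S586E against S586A, 1 for wild type against non-targeting, 1 for the KCl response of knockout minus non-targeting and 1 for KCl in the Arid2 experiment. The direction turned for the FHT1015 mean at Notch1 +17297 (-0.22), Notch1 +21 (-0.37; -0.16 at 10 and -0.74 at 30 min unstimulated), Neurog2 -385 (0.0; 0.19 and 0.15 likewise, and 0.07 for the time dependence) and Hes5 +497 (-0.03). It also turned at Notch1 +15823 at 10 min (0.04), Hes5 +1242 at 30 min (-0.05), both unstimulated, Nes +28744 at 10 min with KCl (0.01), Hes1 -166 for 30 min of KCl in DMSO (0.55) and for the KCl dependence of FHT1015 (-0.23). With 1000 bp windows, the counts were 33 and 7 for FHT1015 at 10 min unstimulated and with KCl and 25 for its time dependence. With 300 bp windows Dll1 +897 turned with KCl at DIV18 (-0.05). Beyond these constructions the cause was not tested.

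Leaving out single libraries gave 110 to 119 calls for the mean FHT1015 effect, 31 to 52, 82 to 94, 1 to 16 and 45 to 71 for 10 and 30 min unstimulated and 10 and 30 min with KCl, 27 to 43 for its KCl dependence and 33 to 46 for its time dependence. The ranges were 12 to 36 and 39 to 62 for 10 and 30 min of KCl in DMSO, 4 to 11 for knockout against non-targeting, 2 to 9, 3 to 10 and 11 to 23 for wild-type Smarcc2, S586A and S586E against vector, 1 to 12 for S586E against S586A, 0 to 8 for wild type against non-targeting, 43 to 54 for KCl at DIV18 and 0 to 2 for the KCl response of knockout minus non-targeting. They were 0 to 0 for the Arid2 knockout and for KCl in that experiment, 30 to 42 for DIV18 against DIV7 non-targeting, 109 to 123 for DIV18 against DMSO and 100 to 110 for DMSO against non-targeting. Where an omission leaves 1 library in a group, that library is assumed to vary like the others.

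The labels do not say what a replicate number shares, and the numbers were not taken to pair the samples, since not every pair of groups had deviations of same-numbered libraries that correlated above 0.1. At DIV18, 35 of 45 pairs of groups did (median r 0.143, lowest 0.0145), against 1 of 28 in the FHT1015 experiment and 0 of 6 in the Arid2 experiment. With the replicate block, calls numbered 115 for the mean FHT1015 effect, 9 for knockout against non-targeting, 16 for S586E against vector and 111 for DMSO against non-targeting, and no count moved by more than 1.5 times. The call at Hes5 -25 for S586E against S586A was lost (adjusted p = 0.0501), as was that at Pax6 +6455 for the KCl dependence of FHT1015 (adjusted p = 0.061). A threshold of 5 on -log10 q could change no value, since the lowest -log10 q of any kept summit was 6.32. Few libraries per group limit what could be called, and scores near 0 lie at the end of a list whose depth differs between libraries.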
